A study of Mus musculus with 30 samples.

Results

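The genes described here are 38 genes of the cell cycle and of DNA replication, taken by name from a list that holds the replication helicase, DNA synthesis enzymes, cyclins, their kinases and inhibitors, and mitotic genes. On the array, 35 of the 38 had a probe set that named them and no other gene, with 50 such probe sets among them, out of 8251 genes so named in all. Tyms, Ccnb1 and Cdk6 had none and have no values here. Where a gene had several probe sets, the brightest on average stood for it. Of the 35, 27 passed the filter on mean intensity and were tested among 5694 genes, and 8 were dim, with a mean intensity under 31 (Mcm6, Prim1, Top2a, Cdk1, Aurka, Birc5, Bub1 and Cdkn1b).

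Total RNA of mouse hippocampus was measured in 30 pools on single-colour Affymetrix MG-U74Av2 arrays, 1 pool per array. The pups were males from a cross of C57BL/6 mice with Nf1 heterozygous mice, and each pool joined the hippocampi of 2 pups of 1 genotype, either wild type or Nf1 heterozygous (NF+/- in the labels). Nf1 encodes neurofibromin, which turns off Ras. At P10 (10 days after birth) there were 3 wild-type and 4 heterozygous pools, at P15 there were 4 of each, at P18, P20 and P28 there were 2 of each, and at P32 there were 2 wild-type pools and 1 heterozygous pool. Livers were used for genotyping. The labels do not say which pools share a litter, so the p-values rest on the spread among the pools measured, which may in part be technical. In such bulk samples, fewer cells of a type and less RNA per cell cannot be told apart.

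A cell that divides copies its DNA once and then separates the copies. In G1, cyclin D with Cdk4 or Cdk6 and cyclin E with Cdk2 phosphorylate the retinoblastoma proteins, which frees E2F factors to turn on replication genes, and Cdkn1a, Cdkn1b and Cdkn2c restrain these kinases. The Mcm proteins form the helicase that licenses and opens replication origins, and cyclin B with Cdk1 drives mitosis until the anaphase-promoting complex, switched on by Cdc20, destroys its substrates. In the rodent hippocampus, cell division after birth is known mainly for granule cell progenitors of the dentate gyrus and for glial and vascular cells, while Cdk5 is a kinase of neurons that have left the cycle.

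Promoters are shown for the 4 members with the largest called falls in wild-type maturation (P10 to P28 and P32) among those with a promoter entry, since E2F factors and the complexes that bind CHR elements and CCAAT boxes are known regulators of many cell cycle genes. The sequences are the 250 bases before the start that the promoter table uses, from RefSeq on GRCm38.p6, written 5′ to 3′ along the gene's strand. For Cdc20, Mcm2 and Rrm2 this start is the gene's first annotated base, while the Mcm5 window ends at 75109508, past the first base of the annotated gene at 75109468, so its last bases lie within the gene. Capitals mark matches, on either strand, to the E2F core (TTTCCCGC, TTTCGCGC, TTTGCCGC or TTTGGCGC), the CHR element (TTTGAA or TTCGAA) or the CCAAT box (CCAAT), and adjoining capitals are matches that overlap. The windows are chr4:118437344-118437593, minus strand for Cdc20, chr8:75109259-75109508, plus strand for Mcm5, chr6:88898781-88899030, minus strand for Mcm2 and chr12:24708004-24708253, plus strand for Rrm2.
Cdc20: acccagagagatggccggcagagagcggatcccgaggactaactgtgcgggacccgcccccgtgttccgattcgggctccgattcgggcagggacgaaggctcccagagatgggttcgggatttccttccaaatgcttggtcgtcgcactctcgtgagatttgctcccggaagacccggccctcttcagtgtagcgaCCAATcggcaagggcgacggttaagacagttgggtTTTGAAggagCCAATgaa
Mcm5: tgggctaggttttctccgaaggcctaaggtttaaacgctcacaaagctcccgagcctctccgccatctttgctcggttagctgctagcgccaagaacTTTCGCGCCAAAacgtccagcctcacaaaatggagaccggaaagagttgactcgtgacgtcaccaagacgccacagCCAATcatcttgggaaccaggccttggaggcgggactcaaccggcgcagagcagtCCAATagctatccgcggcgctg
Mcm2: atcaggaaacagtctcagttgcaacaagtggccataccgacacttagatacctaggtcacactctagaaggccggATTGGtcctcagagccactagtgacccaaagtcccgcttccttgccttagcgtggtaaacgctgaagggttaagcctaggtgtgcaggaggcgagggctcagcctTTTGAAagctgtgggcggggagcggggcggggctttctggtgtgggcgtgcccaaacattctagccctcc
Rrm2: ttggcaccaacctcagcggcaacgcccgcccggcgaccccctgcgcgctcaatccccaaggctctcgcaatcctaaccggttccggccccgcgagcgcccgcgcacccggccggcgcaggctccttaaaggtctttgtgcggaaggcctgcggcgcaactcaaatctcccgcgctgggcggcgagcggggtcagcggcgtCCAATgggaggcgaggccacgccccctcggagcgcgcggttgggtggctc
The Cdc20 window holds 1 CHR match, from base 18 to base 13 before the start, between 2 CCAAT matches. The Mcm5 window holds 2 overlapping E2F core matches, 1 on each strand, between bases 153 and 142, and 2 CCAAT matches. The Mcm2 window holds 1 CHR and 1 CCAAT match, and the Rrm2 window 1 CCAAT match and neither of the others. Of the 38 members, 33 had a promoter entry. An E2F core match was found in 6 of these 33 (18.2%: Cdk1, Cdk2, Mcm5, Mcm6, Mcm7 and Pola1) and in 2.16% of all 27025 genes with an entry. A CHR match was found in 7 of 33 (21.2%: Ccnb2, Cdc20, Cdk1, Mcm2, Mcm7, Mki67 and Top2a) against 19.6% of all genes, and a CCAAT match in 23 of 33 (69.7%) against 37.5%. The CHR share of the members was thus close to that of all genes, and the E2F and CCAAT shares were higher. A match describes the letters of the window and is neither a shown binding site nor a cause.

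The arrays had been brought to 1 level by the authors, and their median intensities ran from 49.99 to 59.11. The lowest correlation of log2 values between pools of 1 group was 0.953 to 0.984, except for the heterozygous P18 group, at 0.93. Heterozygous P18 replicate 1b also had a log2 ratio of the 3′ to the 5′ Gapdh probe set of 0.48, against -0.334 to 0.168 in the other pools, and of 1.14 for Actb, against 0.096 to 0.561. The summed level of 7 cerebellar marker genes, 2 of them with a mean intensity under 31, was 328.5 to 1079 intensity units. That of 7 hippocampal neuron markers was 2128 to 4354. Such sums do not show whether cerebellar tissue was present.

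Over the 6 ages, 16 of the 27 tested members changed (limma's moderated F test, Benjamini-Hochberg adjusted p below 0.05 over all probe sets, as for every call below), beside a background of 55.1% of all genes called. The share of members was 59.3%, close to that background. In wild-type maturation, the mean of P28 and P32 minus P10, 10 of 27 members fell (37.0%) and 0 rose by limma, where 19.9% of all genes were called lower and 19.1% higher. An unadjusted limma p below 0.05 was reached by 15 of the 27 members and by 2696 of all 5694 genes. In heterozygous maturation 13 of 27 fell (48.1%) and 0 rose by limma, where 19.1% of all genes were called lower and 18.2% higher. Here 14 of the 27 members and 2673 of all 5694 genes had an unadjusted limma p below 0.05. The median change of the 27 members was -0.44 on the log2 scale in wild type and -0.53 in heterozygotes, against -0.02 and -0.04 over all genes. The 9 members that fell in both genotypes were Mcm5, Mcm7, Rrm2, Cdc20, Ccnb2, Cdk2, Cdk4, Cdkn1a and Cdk5. Mcm2 was called in wild type only, and Mcm3, Ccne1, Ccnd2 and Cdkn2c in heterozygotes only, but the test of the difference between the genotypes called none of these.

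**Figure D1:**
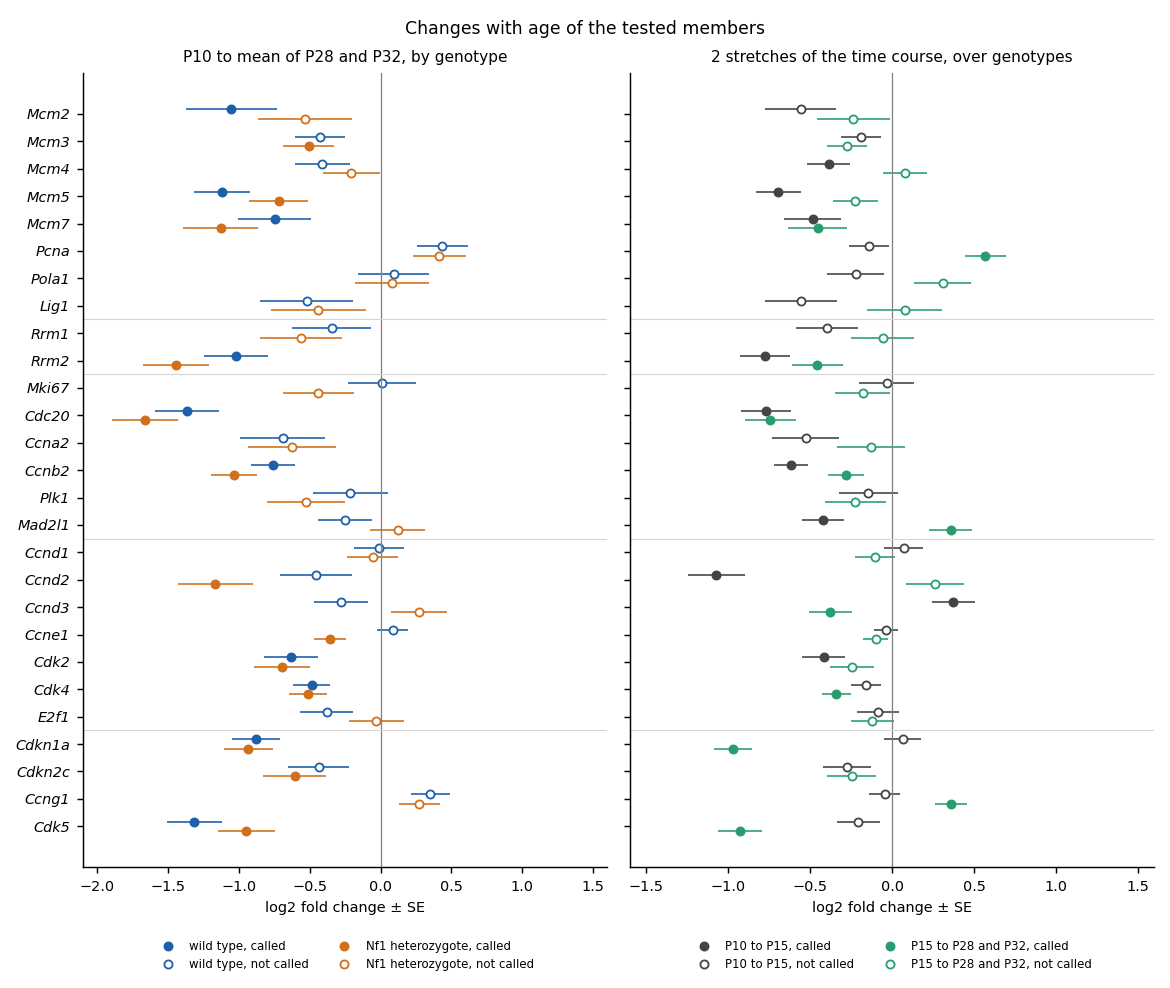
Log2 fold changes (x axis) of the 27 tested members (y axis, ordered by role, grey lines between roles) with their standard errors. Filled points were called and open points were not; the left panel gives P10 to the mean of P28 and P32 in wild type and in Nf1 heterozygotes, where 10 and 13 members were called lower, and the right panel gives P10 to P15 and P15 to the mean of P28 and P32 over both genotypes, which share the P15 pools.

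The fall was already present by P15 for many members. Between P10 and P15, averaged over genotypes, 9 of 27 members fell and 1 rose, where 13.4% of all genes were called lower and 13% higher. Of the 27 changes 24 lay below 0, with a median of -0.28 on the log2 scale against -0.02 over all genes. From P15 to the mean of P28 and P32, 8 fell and 3 rose, where 22.3% of all genes were called lower and 22.4% higher. The members' share called lower was thus 33.3% in the first stretch and 29.6% in the second. Both stretches share the P15 pools. Cdc20, Ccnb2, Rrm2 and Mcm7 were called lower in both. Mcm4, Mcm5, Cdk2, Ccnd2 and Mad2l1 were called lower between P10 and P15 and not after it, and Cdk4, Cdk5, Cdkn1a and Ccnd3 after P15 and not before it, but no test compared the 2 stretches. Of the 10 calls between P10 and P15, those of Ccnb2, Mcm5, Cdc20 and Rrm2 held in every reanalysis in which the gene was tested, as did those of Cdk5 and Cdkn1a among the 11 after P15. Summed over the 35 measured members, the level per pool was 3788 to 4236 intensity units at P10, 3082 to 3568 at P15, 2759 to 3328 at P18, 2899 to 3205 at P20 and 2645 to 2897 at P28 and P32, so that every P10 pool lay above every later pool. Bright members such as Cdk5 weigh most in this sum. From P15 to P28 and P32, the median sum of the inhibitors with Ccng1 and Cdk5 went from 910.3 to 553. That of the replication licensing and fork genes went from 627.5 to 716, and those of the other roles fell. Pcna, the brightest of the replication genes, weighs most in their sum. Of the 8 tested replication genes, Pcna was called higher after P15 and Mcm7 lower, and the median log2 change of the 8 was -0.07.

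**Figure D2:**
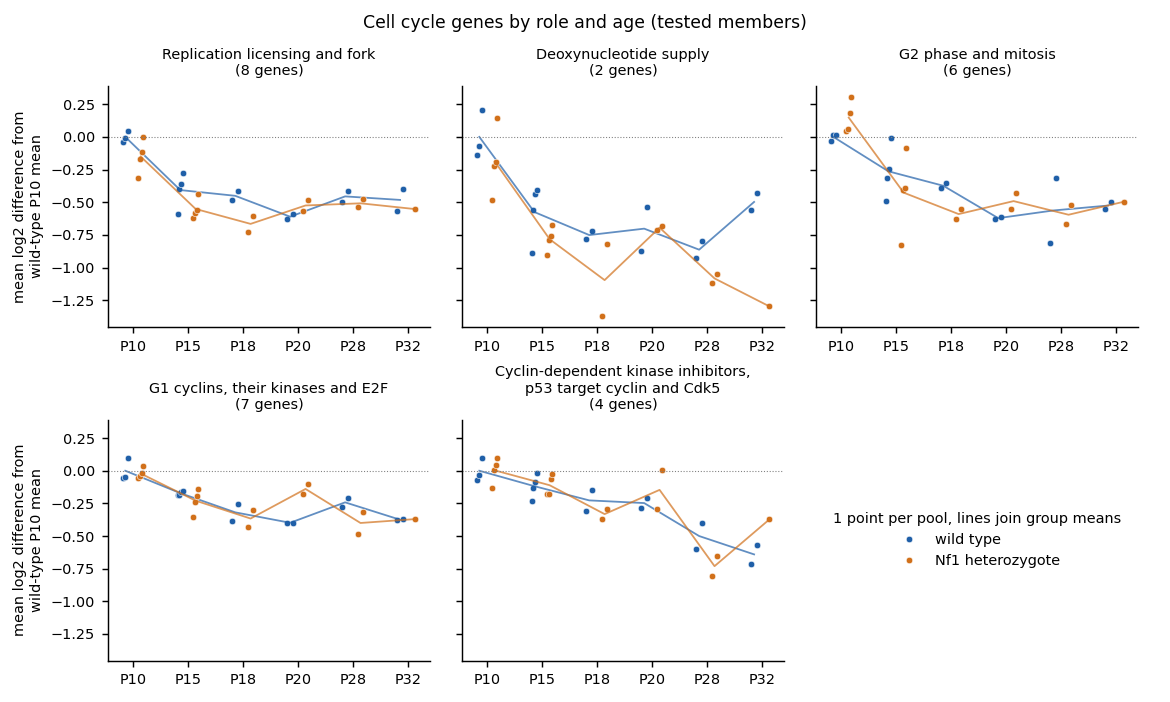
Log2 intensity minus that of the average wild-type P10 pool (y axis), averaged over the tested members of each role, by age (x axis), 1 point per pool and a line through the group means of each genotype. Replication genes lay between -0.31 and 0.04 at P10 and between -0.62 and -0.28 at P15, with no later pool above -0.40, while the kinase inhibitors with Ccng1 and Cdk5 lay between -0.23 and -0.02 at P15 and reached their lowest values, -0.81, at P28.

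Of the 8 tested genes for replication licensing and the fork, 3 fell in each genotype and none rose. Of all genes, 19.9% were called lower and 19.1% higher in wild type, and 19.1% and 18.2% in heterozygotes. Mcm5 (chromosome 8, 75109468 to 75128439 on GRCm38.p6, as for the positions below), a subunit of the replicative helicase, had an intensity of 123, 150 and 165 in the wild-type P10 pools and 64.3, 104, 114 and 122 in the heterozygous ones. At P28 and P32 it was 60.5, 63.6, 66.6 and 76.8 in wild type and 53.4, 60.6 and 64.4 in heterozygotes. The wild-type groups did not overlap, and in heterozygotes 1 of the 4 P10 pools lay within the range of the late pools. Mcm5 fell by 1.12 on the log2 scale in wild type (SE 0.20, limma adjusted p = 0.000113) and by 0.72 in heterozygotes (SE 0.21, adjusted p = 0.00851). Between P10 and P15 it fell by 0.69 (SE 0.14, adjusted p = 0.000515), and the later change of -0.22 (SE 0.14) was not called. A second Mcm5 probe set was dim, at a mean of 20.4 intensity units, and gave 0.64 in wild type (SE 0.53) and -1.26 in heterozygotes (SE 0.55), so that in wild type its sign differed from that of the brighter one.

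Mcm7 (chromosome 5, 138164583 to 138172111), another helicase subunit, lay at 59.9 to 111 intensity units in the 7 P10 pools with a median of 81.7, and at 34.2 to 53.5 in the 7 pools of P28 and P32 with a median of 42.7. Every P10 pool was above every late pool. Its fall was 0.75 in wild type (SE 0.26, limma adjusted p = 0.0237) and 1.13 in heterozygotes (SE 0.27, adjusted p = 0.0017) on the log2 scale, with -0.49 from P10 to P15 and -0.45 after it. The calls in both stretches were lost in 13 and 14 of 41 reanalyses, most of which left out a single pool. The wild-type call was lost in 6 of 41, among them those without P10 replicate 1b or 2a, P28 replicate 1a or P32 replicate 1a, and leaving out 1 pool at a time gave -0.91 to -0.59 in wild type with adjusted p from 0.0079 to 0.109. Mcm2, also of the helicase, was 68.1, 70.6 and 91.3 in wild type at P10 and 30.7, 34.6, 36.5 and 46.3 late, and it fell by 1.05 (SE 0.32, adjusted p = 0.0116). Without wild-type P10 replicate 2b the Mcm2 change was -0.92 with an adjusted p of 0.0584. In heterozygotes the Mcm2 level spread from 24.6 to 92.0 at P10, and its change of -0.53 (SE 0.33) was not called.

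Mcm3 fell in heterozygotes by 0.51 (SE 0.18, limma adjusted p = 0.0305) and changed by -0.43 in wild type (SE 0.18, adjusted p = 0.0576), and Mcm4 fell between P10 and P15 by 0.39 (SE 0.13, adjusted p = 0.0316). These calls were lost in 6 and 9 of 41 reanalyses. Mcm6, the last of the helicase subunits, was dim, at 0.744 to 15.2 intensity units over all pools. Lig1, the ligase that seals Okazaki fragments, and Pola1, the catalytic subunit of the primase-linked polymerase, passed no comparison with age: Lig1 changed by -0.52 in wild type (SE 0.33) and -0.44 in heterozygotes (SE 0.34), and Pola1 by 0.09 (SE 0.25) and 0.08 (SE 0.26). Prim1, the primase subunit, was dim at 2.27 to 21.2 units.

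Pcna, the sliding clamp that holds polymerases on DNA and also serves in repair, went the other way late in the time course. It lay at 212 to 299 intensity units in the 8 P15 pools with a median of 222, and at 296 to 388 in the 7 pools of P28 and P32 with a median of 372. The ranges met at their ends, with the single heterozygous P32 pool, at 296, below the highest P15 pool. Pcna rose by 0.57 on the log2 scale after P15 (SE 0.12, limma adjusted p = 0.000777), after a change of -0.14 between P10 and P15 (SE 0.12). From P10 to the late ages its change was 0.44 in wild type (SE 0.18, adjusted p = 0.0565) and 0.42 in heterozygotes (SE 0.18, adjusted p = 0.0788).

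**Figure D3:**
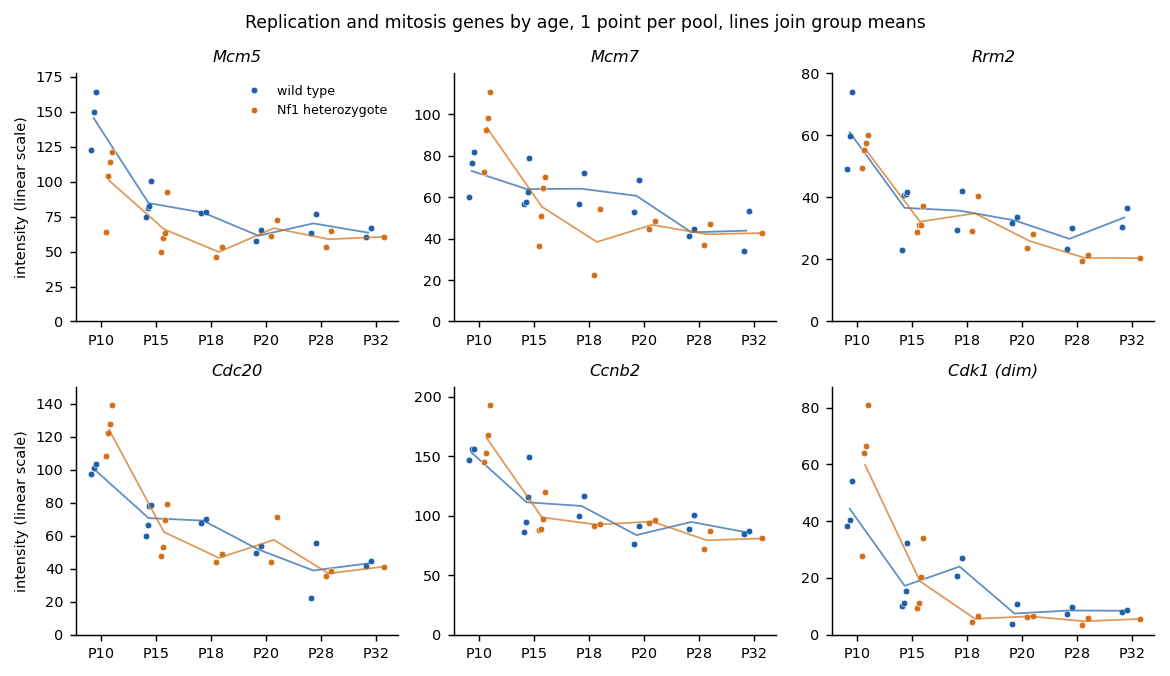
Intensity on a linear scale (y axis, from 0) of 6 members by age (x axis), 1 point per pool, with lines through the group means of wild type and Nf1 heterozygotes. In Rrm2 and Cdc20 every P10 pool lies above every P15 pool and above every late pool; Cdk1 is dim, with every P10 pool at 27.8 or more and every late pool at 9.75 or less.

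Rrm2 (chromosome 12, 24708254 to 24714146), the small subunit of ribonucleotide reductase that is made in dividing cells, had an intensity of 49.1 to 74.1 in the 7 P10 pools with a median of 57.5, 23.0 to 41.7 in the 8 P15 pools with a median of 34.3, and 19.6 to 36.7 in the 7 late pools with a median of 23.2. No P10 pool overlapped with any P15 or late pool. Rrm2 fell by 1.02 in wild type (SE 0.22, limma adjusted p = 0.000892) and by 1.44 in heterozygotes (SE 0.23, adjusted p = 3.8e-05), and by 0.78 between P10 and P15 (SE 0.15). The P10 level raised its mean log2 over all pools, 5.14, which was near the filter's cutoff of 4.95. The late median lay under the dim limit of 31. With 32 added to each intensity before log2, the falls were 0.58 in wild type and 0.74 in heterozygotes, both called. The later fall of 0.46 (SE 0.16, adjusted p = 0.0208) became -0.32 with an adjusted p of 0.0894 after quantile normalization. Rrm1, the large subunit, whose level varies less through the cycle, changed with age (adjusted p = 0.0326), while its changes of -0.34 in wild type (SE 0.28), -0.56 in heterozygotes (SE 0.29) and -0.40 from P10 to P15 (SE 0.19) were not called.

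Among the 6 tested genes of G2 phase and mitosis, Cdc20 and Ccnb2 fell in both genotypes. Of all genes, 19.9% were called lower in wild type and 19.1% in heterozygotes. Cdc20 (chromosome 4, 118432901 to 118437343), the activator of the anaphase-promoting complex, was 97.4, 101 and 104 intensity units in wild-type P10 pools and 108, 122, 128 and 139 in heterozygous ones. At P15 the 8 pools lay between 47.5 and 79.0, and at P28 and P32 the 7 pools lay between 22.4 and 55.5. The P10 pools stood apart from all others in both genotypes, and the P15 and late ranges overlapped. Its fall was the largest of the tested members in both genotypes, 1.37 in wild type (SE 0.23, 2.58-fold, limma adjusted p = 4.28e-05) and 1.66 in heterozygotes (SE 0.23, 3.16-fold, adjusted p = 6.93e-06). The 2 stretches contributed -0.77 (SE 0.15) and -0.74 (SE 0.16), both called.

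Ccnb2 (chromosome 9, 70407689 to 70421554), a mitotic B-type cyclin, lay at 145 to 193 intensity units at P10 with a median of 156, at 86.4 to 149 at P15 with a median of 96.0, and at 72.0 to 100.4 in the late pools with a median of 86.8. All P10 pools were above all late pools, and 1 of the 8 P15 pools, at 149, lay within the P10 range. Ccnb2 fell by 0.76 in wild type (SE 0.16, limma adjusted p = 0.000435) and by 1.03 in heterozygotes (SE 0.16, adjusted p = 2.51e-05). Its fall of 0.62 by P15 (SE 0.11) kept its call in all 42 reanalyses, and the later one of 0.28 (SE 0.11, adjusted p = 0.038) lost it in 14 and turned to 0.16 in 1 more, with the title code as a replicate block. Ccna2, the S and G2 phase cyclin, was 121 to 169 units at P10 and 70.3 to 123 late, and it changed with age (adjusted p = 0.00442), while its changes of -0.69 in wild type (SE 0.30, adjusted p = 0.0722) and -0.63 in heterozygotes (SE 0.31, adjusted p = 0.118) were not called. Mad2l1, of the spindle checkpoint, fell by 0.42 between P10 and P15 (SE 0.13, adjusted p = 0.0166) and rose by 0.36 after it (SE 0.13, adjusted p = 0.0295). The first call was lost in 3 of 41 reanalyses, among them that without wild-type P10 replicate 2b, and the second in 7, among them those without wild-type P15 replicate 1a, P28 replicate 1a or P32 replicate 1b or the heterozygous P32 pool. Over the whole span Mad2l1 changed by -0.25 in wild type (SE 0.19) and 0.12 in heterozygotes (SE 0.19), neither called.

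Mki67, the usual marker of cycling cells, and Plk1, a mitotic kinase, did not pass by their brightest probe set, and their probe sets differed. The brightest Mki67 probe set changed by 0.01 in wild type (SE 0.24) and -0.44 in heterozygotes (SE 0.25), at a mean of 41.5 intensity units. A second, dim Mki67 probe set, at a mean of 15.4 units, changed by -1.43 (SE 0.58) and -2.04 (SE 0.61). For Plk1 the brightest probe set changed by -0.21 in wild type (SE 0.27) and -0.53 in heterozygotes (SE 0.28), while a second that passed the filter fell by 0.86 (SE 0.23, limma adjusted p = 0.00426) and 0.91 (SE 0.24, adjusted p = 0.00358).

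The dim members include genes of S phase and mitosis, and their log2 values depend on the treatment of low intensities. Cdk1, the mitotic kinase, was 38.4, 40.5 and 54.1 intensity units in wild-type P10 pools and 27.8, 63.9, 66.4 and 81.0 in heterozygous ones. In the late pools it was 7.35, 8.17, 8.73 and 9.75 in wild type and 3.45, 5.59 and 6.06 in heterozygotes, so the P10 pools lay above all late pools. In a fit without the filter Cdk1 fell by 2.38 in wild type (SE 0.47, limma adjusted p = 0.000571) and 3.46 in heterozygotes (SE 0.49, adjusted p = 1.4e-05), and with 32 added to each intensity before log2 the same falls were 0.91 and 1.27. Top2a, the topoisomerase that untangles replicated DNA, fell by 1.89 and 2.72 and Birc5, a subunit of the chromosomal passenger complex, by 1.14 and 1.29 in that fit, and both were called in both genotypes also with 32 added. Aurka, the spindle pole kinase, was called in heterozygotes (-1.41, SE 0.40, adjusted p = 0.011) and not in wild type (-0.66, SE 0.38). Thus 3 of the 8 dim members were called lower in wild type, 4 in heterozygotes and 3 between P10 and P15, where the fit without the filter called 13.5%, 13.5% and 8.45% of its 8251 genes lower. After P15 it called 1 of the 8, against 15.5% of all genes. The brightest probe sets of Mcm6, Prim1, Bub1 (a spindle checkpoint kinase) and Cdkn1b (the inhibitor p27) were not called in any of these. A second, dim probe set of Cdkn1b was called higher in wild type (1.71, SE 0.53, limma adjusted p = 0.0217, mean intensity 13.4), and one of Bub1 lower (-1.78, SE 0.62, adjusted p = 0.0404, mean intensity 2.32).

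Of the 7 tested G1 genes, 2 fell in wild type and 4 in heterozygotes, where 19.9% and 19.1% of all genes were called lower. Cdk4 (chromosome 10, 127063535 to 127067288), the partner of the D cyclins, lay at 474 to 519 intensity units in the 7 P10 pools with a median of 501 and at 324 to 410 in the 7 late pools with a median of 348, with no overlap. It fell by 0.49 in wild type (SE 0.13, limma adjusted p = 0.00483) and by 0.51 in heterozygotes (SE 0.14, adjusted p = 0.00436). A second Cdk4 probe set above the filter changed by -0.36 in wild type (SE 0.23, adjusted p = 0.211) and fell by 0.65 in heterozygotes (SE 0.23, adjusted p = 0.0313). Cdk2, the kinase of cyclins E and A, lay at 57.3 to 72.5 units at P10, 42.3 to 52.7 at P15 and 31.6 to 51.7 late, so all P10 pools stood above all P15 and late pools. Cdk2 fell by 0.63 in wild type (SE 0.19, adjusted p = 0.0118) and 0.70 in heterozygotes (SE 0.20, adjusted p = 0.00748), but without wild-type P28 replicate 1b its wild-type change was -0.45 with an adjusted p of 0.081. Ccne1, cyclin E1, fell in heterozygotes by 0.36 (SE 0.11, adjusted p = 0.0166) and changed by 0.08 in wild type (SE 0.11). E2f1, the transcription factor of replication genes, was at 30.4 to 61.9 units throughout and changed by -0.38 in wild type (SE 0.19) and -0.03 in heterozygotes (SE 0.19), neither called.

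The 3 D cyclins, which link growth signals to Cdk4, differed from each other. Ccnd1 kept to 139 to 254 intensity units at all ages and changed by -0.01 in wild type (SE 0.18) and -0.06 in heterozygotes (SE 0.18). Ccnd3 rose by 0.37 between P10 and P15 (SE 0.13, limma adjusted p = 0.0358) and fell by 0.38 after it (SE 0.13, adjusted p = 0.0241), with both calls lost when some single pools were left out (adjusted p up to 0.106 and 0.0861). Ccnd2 (chromosome 6, 127125162 to 127152188), the D cyclin of granule cell precursors and adult-born dentate granule cells, was 75.6 to 120 units in the 7 P10 pools and 20.5 to 67.6 in the 8 P15 pools, with no overlap. It fell by 1.07 between P10 and P15 (SE 0.17, adjusted p = 6.12e-05), and its change after P15 was 0.26 (SE 0.18). In heterozygotes it fell by 1.17 from P10 to the late ages (SE 0.26, adjusted p = 0.00124), and in wild type it changed by -0.45 (SE 0.26, adjusted p = 0.165).

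**Figure D4:**
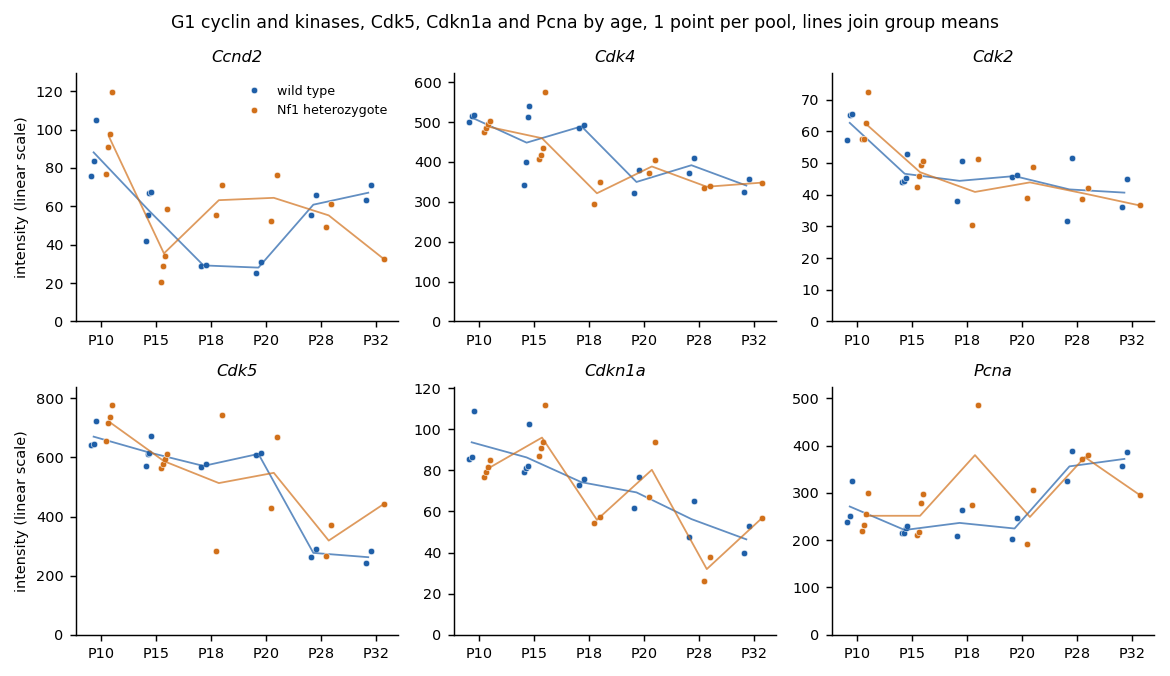
Intensity on a linear scale (y axis, from 0) of 6 further members by age (x axis), 1 point per pool, with lines through the group means of wild type and Nf1 heterozygotes. Every late pool of Cdk5 and Cdkn1a lies below every P10 and P15 pool, and both wild-type pools of Ccnd2 lie below both heterozygous ones at P18 and at P20.

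Of the 4 tested genes among the inhibitors, Ccng1 and Cdk5, 2 were called lower and 1 higher after P15, and 0 between P10 and P15 by their brightest probe set with limma. Of all genes, 22.3% were called lower and 22.4% higher after P15, and 13.4% and 13% between P10 and P15. Cdkn1a (chromosome 17, 29090979 to 29100722), the inhibitor p21, lay at 76.7 to 109 intensity units at P10, 79.4 to 112 at P15 and 26.0 to 64.9 in the late pools. The late pools lay below every earlier pool of P10 and P15, whose ranges overlapped. Its change was 0.06 between P10 and P15 (SE 0.11) and -0.97 after it (SE 0.12, limma adjusted p = 1e-06), and its fall over the whole span was 0.88 in wild type (SE 0.17) and 0.93 in heterozygotes (SE 0.17), both called. A second Cdkn1a probe set above the filter differed in timing, since it fell by 0.78 already between P10 and P15 (SE 0.28, adjusted p = 0.0361), and it changed by -0.97 in wild type (SE 0.41, adjusted p = 0.0579).

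Cdk5 (chromosome 5, 24407597 to 24423587) had the highest mean intensity of the members, 545 units, although intensities of different probe sets are not comparable as amounts of RNA. It was 641 to 778 units at P10, 566 to 672 at P15 and 241 to 442 in the late pools, where every late pool lay below every P10 and P15 pool. Cdk5 fell by 1.32 in wild type (SE 0.19, 2.49-fold, limma adjusted p = 1.13e-05) and by 0.95 in heterozygotes (SE 0.20, adjusted p = 0.000672), with -0.21 by P15 (SE 0.13) and -0.93 after it (SE 0.14, adjusted p = 1.1e-05). Cdkn2c, the Cdk4 and Cdk6 inhibitor p18, fell in heterozygotes by 0.61 (SE 0.22, adjusted p = 0.034), a call lost in 8 of 41 reanalyses, and changed by -0.44 in wild type (SE 0.21). Ccng1, a cyclin induced by p53, was 100.2 to 128.5 units at P15 and 129.6 to 174 in the late pools, with no overlap, and rose by 0.36 after P15 (SE 0.10, adjusted p = 0.00475).

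Of 132 other genes of the cell cycle taken from a list by role, 110 were measured and 68 tested. In wild-type maturation 17 of the 68 fell (25.0%, against 19.9% of all genes) and 6 rose (8.82%, against 19.1%). Between P10 and P15 16 fell (23.5%, against 13.4%) and 3 rose (4.41%, against 13%), and after P15 13 fell and 13 rose (19.1% each, against 22.3% and 22.4%). By role, 6 of 19 replication genes, 9 of 28 mitosis genes and 2 of 21 G1, checkpoint and inhibitor genes fell in wild-type maturation, while 2, 1 and 3 rose. The largest falls were those of Cks1b, a subunit of cyclin-dependent kinases (2.09, SE 0.31), Chaf1b of the chromatin assembly factor (1.63, SE 0.35), Pold2 of DNA polymerase delta (1.43, SE 0.35) and Cenpb of the centromere (1.31, SE 0.21). Those that rose most were Mdm2, which restrains p53 (0.72, SE 0.17), the histone mRNA binder Slbp (0.53, SE 0.19), the cyclin Ccng2 (0.51, SE 0.14) and the stress gene Gadd45a (0.45, SE 0.17). The Slbp call was lost in 5 of 41 reanalyses, among them those without wild-type P10 replicate 2a or 2b, P28 replicate 1a or P32 replicate 1a, and that of Gadd45a in 9, among them those without wild-type P10 replicate 2a or 2b, P28 replicate 1b or P32 replicate 1b. From P10 to P15, Cks1b fell by 1.36 (SE 0.21), Prc1 of the central spindle by 0.86 (SE 0.24), Cdca8 by 0.77 (SE 0.13) and the tubulin binder Stmn1, which neurons also express, by 0.70 (SE 0.07), while Gadd45g, Gadd45a and Wee1 rose by 0.63, 0.50 and 0.46, the last a call lost in 7 of 41 reanalyses.

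Markers of several cell types changed over the same ages, where 19.9% of all genes were called lower in wild-type maturation and 13.4% between P10 and P15. Of 10 tested markers of neural progenitors and newborn neurons, 6 fell in wild-type maturation and 9 between P10 and P15, with none higher, among them Dcx (2.36 in wild-type maturation, SE 0.20), Fabp7 (1.38, SE 0.28) and Neurod1 (1.14, SE 0.19). Their summed level over 13 genes was 5042 to 5635 intensity units at P10, 1916 to 3848 at P15 and 2257 to 3622 in the late pools, with no overlap between P10 and later. Of 8 endothelial markers 5 fell, with Tie1, Eng and Cldn5 lower by 3.44-fold, 2.77-fold and 2.06-fold, and of 9 mural and meningeal markers 4 fell, led by Col3a1, Rgs5 and Col1a1. The endothelial sum over 8 genes was 1413 to 1735 at P10, 887.4 to 1209 at P15 and 615.7 to 917.4 late. Of 8 tested microglia and macrophage markers, 7 rose between P10 and P15, where 13% of all genes did. In wild-type maturation Ctss (1.22, SE 0.12) and Cd53 (0.95, SE 0.27) rose and Cx3cr1 fell (0.75, SE 0.14), where 19.1% of all genes were called higher. After P15, 1 of the 8 rose and 2 fell, where 22.4% of all genes were called higher and 22.3% lower. All 3 tested choroid plexus markers rose between P10 and P15, and Kl rose by 2.50 in wild-type maturation (SE 0.54), with a sum over the 3 genes of 88.2 to 2442 at P10, 1142 to 3001 at P15 and 374 to 4882 late. Of 5 tested cerebellar markers all changes lay below 0 in wild-type maturation and 1 was called, Cbln1, which fell by 1.10 (SE 0.20). In heterozygous maturation 2 of the 5 were called lower and 1 higher, where 19.1% and 18.2% of all genes were. At P10, 1 of the 5 was called lower in heterozygotes than in wild type, where 0.0351% of all genes were called for genotype. Of the oligodendrocyte progenitor list only 3 genes were measured, of which Pdgfra fell by 0.88 (SE 0.20), Sox10 rose by 0.45 (SE 0.15) and Nkx2-2 was not called. The part of these cell types in the members' changes was not tested.

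**Figure D5:**
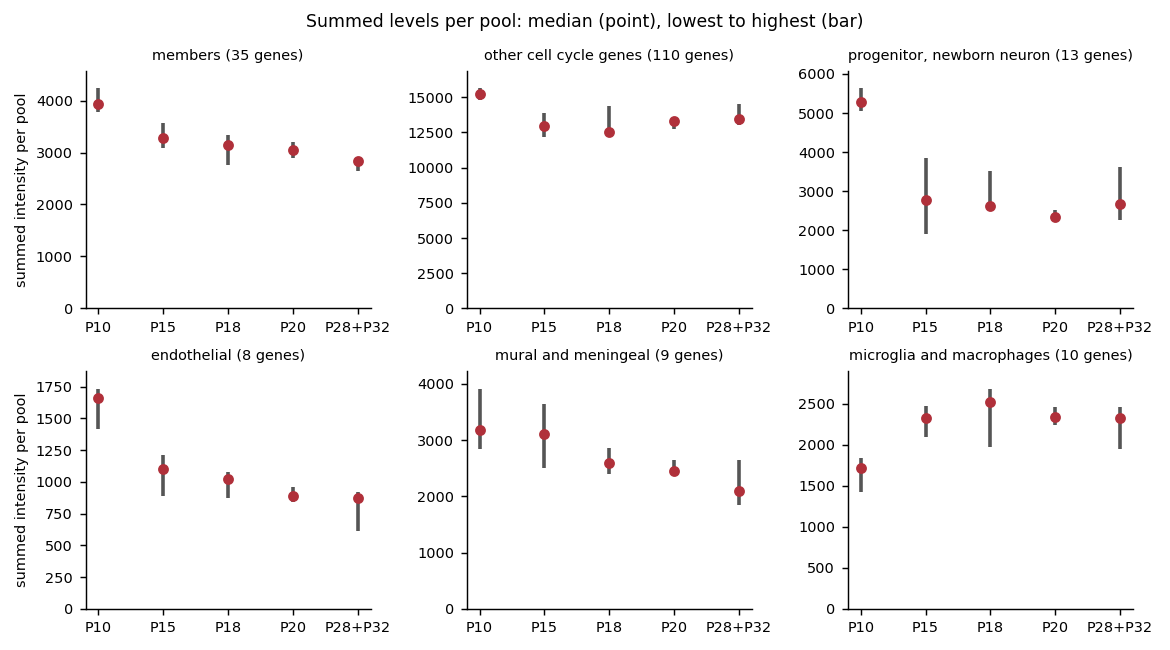
Summed intensity per pool (y axis, from 0) of the members, the other cell cycle genes and 4 lists of cell type markers by age (x axis), with the median over pools as a point and the lowest to highest pool as a bar. The members, the other cell cycle genes and the progenitor and endothelial lists have all P10 pools above all later pools. The microglia list has all P10 pools, at 1833 or less, below all later ones, at 1941 or more.

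The comparison of Nf1 heterozygotes with wild type asked whether the loss of 1 Nf1 copy moved these genes. By limma, 0 of the 27 members were called for the genotype effect over all ages (0% of all genes called, 521 with an unadjusted p below 0.05), and 3 members had an unadjusted p below 0.05. These were Mcm5, lower in heterozygotes by 0.35 (SE 0.10, limma adjusted p = 0.295), Rrm2 (-0.23, SE 0.11, adjusted p = 0.507) and Ccng1 (0.21, SE 0.07, adjusted p = 0.365). At P10, 0 members were called (0.0351% of all genes called, 327 of 5694 with an unadjusted p below 0.05). There 2 members had an unadjusted p below 0.05, Ccne1 (0.37, SE 0.11) and Mcm5 (-0.56, SE 0.20). At P15, 0 members were called (0% of all genes called, 327 of 5694 with an unadjusted p below 0.05). There 2 members had an unadjusted p below 0.05, Ccnd2 (-0.79, SE 0.24) and Mcm5 (-0.39, SE 0.19). The difference in maturation between the genotypes was called for 0 members (0% of all genes). An unadjusted p below 0.05 was reached by 1 member, Ccne1 (-0.44, SE 0.16), and by 368 of all 5694 genes. The standard errors of the members' genotype effects over all ages were 0.07 to 0.18 with a median of 0.10 on the log2 scale, and those of the differences in maturation 0.16 to 0.47 with a median of 0.28, which sets the size that could have been seen.

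Whether the genotype effect depends on age was called for 1 member, Ccnd2 (limma's moderated F test, adjusted p = 0.0119), 3.70% of the members where 6.11% of all genes were called. Its mean intensity in wild type and heterozygotes was 88.1 ± 15.2 (SD, n = 3) and 96.3 ± 17.8 (n = 4) at P10 and 58.0 ± 12.2 (n = 4) and 35.5 ± 16.3 (n = 4) at P15. At P18 it was 29.0 and 29.4 in the wild-type pools and 55.5 and 70.9 in the heterozygous ones, at P20 25.3 and 30.9 against 52.3 and 76.6, at P28 55.6 and 66.1 against 49.4 and 61.2, and at P32 63.1 and 71.1 against 32.6. Heterozygous pools were thus above wild-type pools at P18 and P20, below them at P32, and overlapping at the other ages. At P18 the wild-type pools had title codes 1c and 1d and the heterozygous ones 1a and 1b, and at P20 2a and 2b against 1a and 1b. Genotype and title code thus cannot be told apart at P18 and P20. The log2 ratio of the 3′ to the 5′ Gapdh probe set at P20 was -0.334 and -0.3 in wild type and 0.003 and 0.168 in heterozygotes. Without all P18 pools the adjusted p was 0.0633, with the 3′ to 5′ Gapdh ratio in the fit it was 0.109, and without heterozygous P18 replicate 1b it was 0.0318. At P18 alone, 5 members were called for genotype (Ccnd3 and Cdk4 lower in heterozygotes, Ccnd2, Ccng1 and Mad2l1 higher), where 23% of all genes were called, so the members' 18.5% was below that background. Without heterozygous P18 replicate 1b, the pool with the high 3′ to 5′ ratios, 0 members and 3.35% of all genes were called there, and without replicate 1a it was 10 members and 38% of all genes. With the 3′ to 5′ Gapdh ratio in the fit, limma called 0 members and 1.02% of all genes for genotype at P18, and Ccnd2 was at 1.17 (SE 0.46, adjusted p = 0.187) there.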

How the data were processed

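Each array gave 1 intensity per probe set, deposited by the authors on a linear scale and already brought to 1 level. The software of this step was not given in the sources used here. Intensities below 1 (1.68% of values) were set to 1 and log2 was taken. Of 12422 non-control probe sets, a filter on the average log2 over the 30 arrays removed the dimmest 40%, and 7453 were tested with limma 3.58.1 (lmFit, eBayes with an intensity trend) over 12 groups of genotype and age. P-values were adjusted by Benjamini-Hochberg over all tested probe sets, and calls were made at an adjusted p below 0.05. Gene symbols came from the platform annotation. Beyond the members, the 4 other cell cycle genes with the largest called rise and fall in wild-type maturation and from P10 to P15 are named, and up to 3 genes of each marker list with the largest change. The members and lists were chosen with earlier results of these data known. The number of arrays limits the precision.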

Additional observations from a re-analysis of the deposited data

Results flagged for a closer look

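In 81 comparisons of single pools with the rest of their group of 4, 7 values, from 4 pools, stood apart by Dixon's test, where chance alone sets apart about 1 group in 20. All values are intensities. In wild-type P15, replicate 1a was low for Mcm2 at 37.2, with the others at 52.4 to 55.0, and low for Rrm2 at 23.0, with the others at 40.8 to 41.7. The same pool was high for Cdkn1a at 102, with the others at 79.4 to 82.1. Replicate 2d of that group was high for Mki67 at 62.8, with the others at 37.3 to 39.2, and for Cdk2 at 52.7, with the others at 44.0 to 45.3. In heterozygous P10, replicate 2a was low for Pola1 at 25.5, with the others at 34.3 to 35.6, and replicate 2b was low for Ccng1 at 105, with the others at 124.1 to 125.5. The genotype effect on Ccnd2 differed between ages (limma's moderated F test, adjusted p = 0.0119), with an adjusted p of 0.0633 without all P18 pools and 0.109 with the 3′ to 5′ Gapdh ratio in the fit. For this test 6.11% of all genes were called. At P18 and P20, genotype and title code cannot be told apart.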

How the results depend on the processing

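Of the calls on members, 7 of 10 in wild-type maturation, 10 of 13 in heterozygous maturation, 4 of 10 between P10 and P15 and 2 of 11 after P15 held in every alternative in which the gene was tested. A stricter filter left several of these genes out of the test. Under a stricter filter that removed the dimmest 60%, 10 members were tested and the counts of members called were 3 lower and 2 higher in wild type, 4 lower in heterozygotes, 2 lower from P10 to P15, 4 lower after P15, 6 with age and 0 for the interaction. In wild-type maturation the higher calls were 1 with quantile normalization, without the intensity trend, with the title number as a block and with the mean of probe sets, and 2 with array weights, with the groups compared alone and without all P18 pools (chosen after seeing the data). In heterozygotes they were 1 with array weights, with the groups compared alone, with the title number as a block and without all P18 pools. The interaction gave 2 with array weights, and 0 with the replicate block, without all P18 pools or with the 3′ to 5′ Gapdh ratio in the fit. From P10 to P15 the higher calls were 0 without the filter and with the Gapdh ratio. After P15 the lower calls were 5 with quantile normalization and with the title number, and the higher calls 1 with the Gapdh ratio. Leaving out 1 pool at a time gave 9 to 11 lower and 0 to 2 higher in wild type, 10 to 14 and 0 to 1 in heterozygotes, 7 to 10 and 0 to 1 from P10 to P15, 5 to 9 and 2 to 4 after it, 14 to 17 with age and 1 to 7 for the interaction, with 7 without heterozygous P18 replicate 1a. With the title code as a replicate block the counts were 5 lower and 0 higher from P10 to P15 and 2 lower and 0 higher after it, and the late changes of Cdk4 and Ccnb2 turned to 0.10 and 0.16. Codes ending in c or d occurred only at P15 and P18, so this block and age cannot be fully told apart. Deviations from the group means in wild-type and heterozygous pools of the same age and code had correlations of -0.177 to 0.126. This check covered few pairs, at P10, P15 and P28, and in groups of 2 the deviations mirror each other. It cannot show whether the codes pair the pools. The cause of the shifts between the alternatives was not tested.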
